A study of Mus musculus with 23 samples.

Results

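Brain transcriptomes of Csf1R-G793A mice fed PLX3397 were compared with those of untreated wild-type mice, to see which genes stayed away from the untreated wild-type level when the inhibitor was given to mice with an altered receptor. The libraries of each group were taken by their labels: 4 libraries of G793A mice on PLX3397 and 3 of wild-type (WT) mice on control chow, 7 of the 23 in the study. All mice were C57BL/6J. G793A mice carried the substitution in the colony-stimulating factor 1 receptor, and the diets were given for 14 days: control chow, PLX3397 at 290 mg/kg or PLX5622 at 1200 mg/kg. The groups used beside the main pair were G793A mice on control chow, WT mice on PLX3397 and G793A mice on PLX5622, with 4 libraries each. The labels give the tissue as brain, with no region, sex, age or batch, and do not say whether each library is a separate mouse, so p-values measure only the spread between these libraries. How the G793A allele was made and whether it is present in 1 or both copies are not given in the sources used here, and gene counts do not show the substitution itself.

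CSF1R is a class III receptor tyrosine kinase on the surface of microglia and other macrophages, and its ligands CSF1 and IL-34 keep these cells alive. PLX3397 and PLX5622 are oral kinase inhibitors that block CSF1R and deplete microglia from the mouse brain. PLX3397 is also known to inhibit the related kinases KIT and FLT3. PDGFRA, another kinase of this class, marks oligodendrocyte precursor cells, which divide in the adult brain and give rise to myelinating oligodendrocytes.

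Levels are counts-per-million (CPM) within a library and serve to compare libraries for 1 gene. Differences are log2 fold changes ± SE from an edgeR quasi-likelihood model of all 23 libraries, and calls were made on p-values adjusted by the Benjamini-Hochberg method over 16209 genes, with 0.05 as the limit. WT control libraries held between 33.8 M and 39.5 M counts (M, mega). The treated libraries held between 26.3 M and 43.3 M, with replicate 4 the lowest. The 14 neuronal marker genes summed to 9113 to 10740 CPM in WT controls and to 10070 to 10740 CPM in G793A mice on PLX3397. Replicates 2 and 4 of G793A on PLX3397 stood apart in the activity-dependent gene Npas4, at 185 and 214 CPM, against 8.04 and 16.2 CPM in replicates 1 and 3 and 3.24 to 22.9 CPM in WT controls. Outside this group, 1 library of WT mice on PLX3397 and 1 of G793A mice on PLX5622 also exceeded 100 CPM. Several results below are also given without these 4 libraries.

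Pdgfra was the only gene edgeR called between G793A mice on PLX3397 and WT controls (0.00617% of genes tested), and it fell. It stood at 63.6, 67.0 and 69.5 CPM in WT controls and at 48.2, 50.7, 47.9 and 35.9 CPM in G793A mice on PLX3397. The groups did not overlap, and replicate 4 of the treated group was the lowest. Pdgfra fell by 0.54 ± 0.08 (95% interval −0.71 to −0.37, adjusted p = 0.0154), to 68.4% of the WT control mean. At the lower unadjusted threshold of 0.05, 1173 genes passed (497 higher and 676 lower), where chance gives 810.

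Pdgfra also fell by 0.54 ± 0.08 between G793A mice on PLX3397 and G793A mice on control chow (adjusted p = 0.00678), again the only gene called in edgeR (0.00617%). These 2 comparisons share the treated libraries. G793A mice on control chow stood at 62.4 to 69.1 CPM, with a mean at 99.4% of the WT control mean. In WT mice on PLX3397 the libraries stood at 56.8, 50.3, 56.6 and 52.6 CPM, all below the WT controls, with a log2 fold change of −0.30 ± 0.08 that did not pass (adjusted p = 0.0716). The log2 fold change with the inhibitor was more negative in G793A than in WT mice by −0.23. This difference did not pass (edgeR interaction test, 95% interval −0.46 to 0.00, unadjusted p = 0.0529). On PLX5622, at another dose, Pdgfra stood at 58.4 to 70.5 CPM in G793A mice (−0.02 ± 0.08 against WT controls) and at 66.6 to 68.3 CPM in WT mice. Libraries on PLX3397 were below the WT controls in both genotypes, while those on PLX5622 overlapped them. The difference between the compounds was not tested.

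With DESeq2 in place of edgeR 26 genes passed, 16 of them lower, with Pdgfra among these. The call on Pdgfra was lost in 5 of 19 alternatives. Among them were leaving out WT control replicate 2 (adjusted p = 0.145) or replicate 3 (adjusted p = 0.13), with log2 fold changes between −0.60 and −0.45 in every alternative run. Without the 4 libraries with high Npas4 it fell by 0.47 (adjusted p = 0.00588), and without replicate 4 of G793A on PLX3397 by 0.45 (adjusted p = 0.00773).

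**Figure D1:**
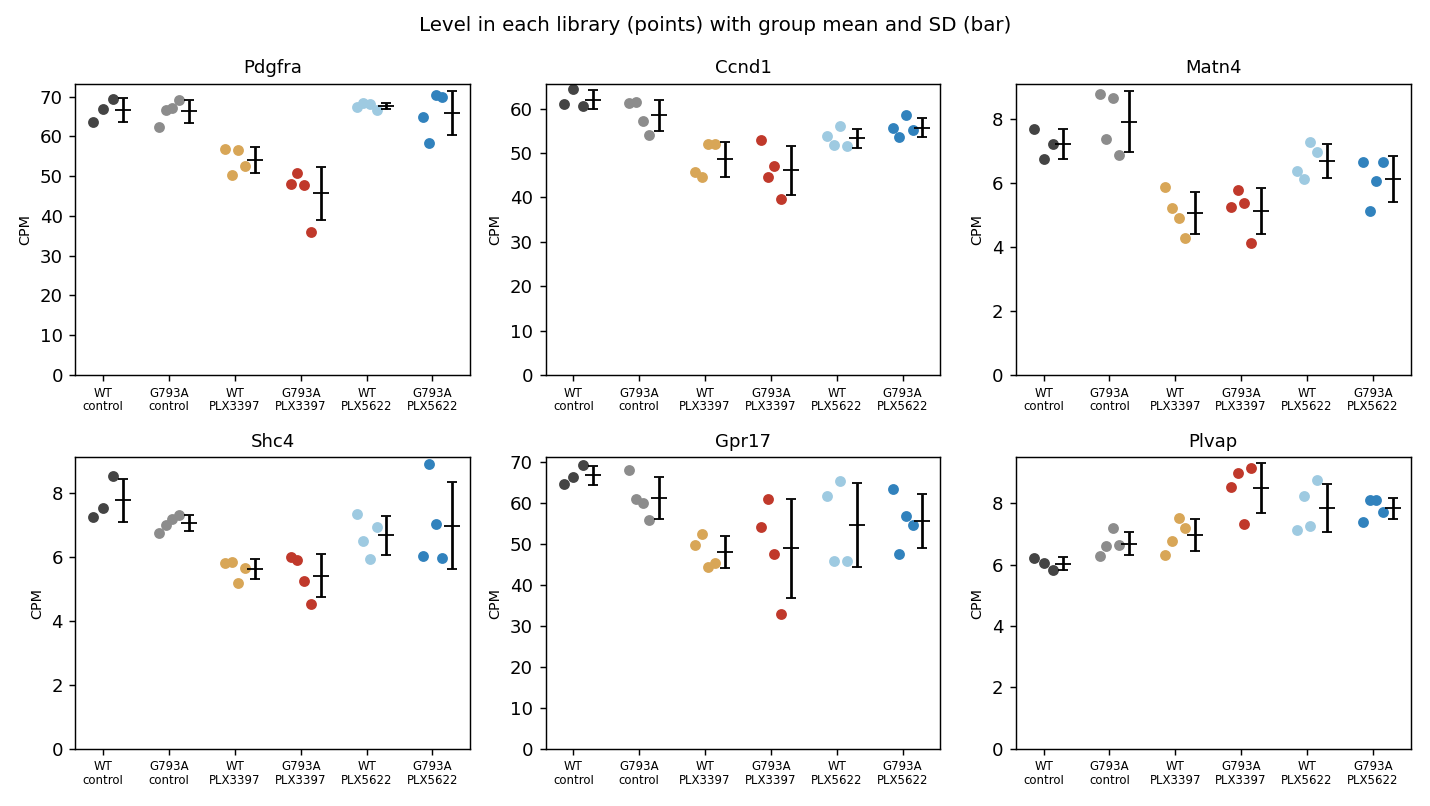
CPM of 6 genes (y axis, from 0) in each library of the 6 groups (x axis); points are libraries in replicate order, and the bar beside them is the group mean with its SD. Pdgfra is at 35.9 to 50.7 CPM in the 4 libraries of G793A mice on PLX3397, below the 63.6 to 69.5 CPM of WT controls, and Plvap is above the WT controls. Shc4 was chosen after its values were seen.

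Of 13 class III receptor kinases and ligands tested, Pdgfra was the only 1 called in edgeR, and 9 had a 95% interval inside 1.5-fold of the untreated wild-type level (76.4% of all genes). All libraries lay below WT controls in 2, Pdgfra and Csf1r (4.11% of genes tested), and above them in 1, Flt3l (3.51%). The median log2 fold change of the 13 was −0.05, against 0.00 over all genes. Csf1r itself stood at 95.1, 93.4 and 92.8 CPM in WT controls and at 69.9, 79.7, 75.7 and 72.5 CPM in G793A mice on PLX3397. Every treated library was below every control, yet the log2 fold change of −0.33 ± 0.19 (95% interval −0.74 to 0.07, adjusted p = 0.756) did not pass. G793A mice on control chow were at 78.5 to 88.4 CPM, also below WT controls, and WT mice on PLX3397 were at 17.0 to 28.9 CPM.

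The genes for the receptor's ligands had log2 fold changes of −0.04 ± 0.07 (Csf1) and 0.03 ± 0.08 (Il34), with 95% intervals of −0.19 to 0.11 and −0.14 to 0.19. The sign of both changed in at least 1 alternative. Kit, the stem cell factor receptor, was at 0.23 ± 0.11 and its ligand gene Kitl at −0.21 ± 0.09. Flt3, a receptor of dendritic cell precursors, was at 0.25 ± 0.15. Its ligand gene Flt3l stood at 1.07, 1.16 and 1.24 CPM in WT controls and at 2.02, 1.76, 1.55 and 1.45 CPM in G793A mice on PLX3397 (0.55 ± 0.20, adjusted p = 0.522). The PDGF receptor of mural cells, Pdgfrb, was at −0.05 ± 0.09, and its 95% interval of −0.24 to 0.14 excludes a fall of the size seen in Pdgfra. Of the PDGF ligand genes, Pdgfa was at −0.05 ± 0.07, Pdgfb at −0.22 ± 0.11, Pdgfc at 0.12 ± 0.30 and Pdgfd at −0.05 ± 0.15.

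Oligodendrocyte precursor genes leaned low in G793A mice on PLX3397. Of 18 genes on this list, 1 was called (Pdgfra), 9 were lower at an unadjusted p under 0.05 (4.17% of all genes tested) and 0 were higher. Their median log2 fold change was −0.19, and 13 of the 18 had a 95% interval inside 1.5-fold either way. Matn4, a matrix protein gene of precursors, stood at 7.70, 6.74 and 7.23 CPM in WT controls and at 5.26, 5.77, 5.38 and 4.12 CPM in G793A mice on PLX3397 (−0.49 ± 0.13, adjusted p = 0.383). These groups did not overlap. Vcan, which encodes the proteoglycan versican, was at −0.32 ± 0.10 (adjusted p = 0.48), with overlap between the groups. The transcription factor genes Sox10 and Olig2 of this list were chosen after their values were seen. Sox10 had a 95% interval of −0.23 to 0.07, and Olig2 one of −0.23 to 0.38.

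Gpr17 and Neu4 mark precursors that have begun to differentiate. Gpr17, an orphan receptor gene, stood at 64.6, 66.3 and 69.3 CPM in WT controls and at 54.1, 61.03, 47.4 and 32.9 CPM in G793A mice on PLX3397 (−0.44 ± 0.15, adjusted p = 0.516). The groups did not overlap, and replicate 4 was again the lowest. Neu4, a sialidase gene, was at 6.77 to 9.29 CPM in WT controls and 3.01 to 7.37 CPM in the treated group, with overlap (−0.50 ± 0.17). Over 12 genes of committed precursors the median was −0.13, with 0 called and 3 below all controls (4.11% of all genes); Gpr17 and Neu4 are on both lists. That median was −0.03 without WT control replicate 3, −0.20 without replicate 4 of the treated group and −0.22 without the libraries with high Npas4. The list score of precursor genes, the mean log2 CPM minus its WT control mean, was −0.13, −0.13, −0.17 and −0.45 in replicates 1 to 4 of the treated group and −0.08 to 0.07 in WT controls. Without the 4 libraries with high Npas4, which include replicate 4, the precursor median was −0.13, and 6 of 18 genes were lower at an unadjusted p under 0.05 (2.98% of all genes in that fit).

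WT mice on PLX3397 had similar values for the precursor list, measured against the same WT controls. There the median was −0.17 and 1 of 18 genes was called, Matn4, which fell by 0.51 ± 0.13 (adjusted p = 0.034, 1.49% of genes called lower). Gpr17 was at −0.48 ± 0.15 and Neu4 at −0.49 ± 0.17 in that comparison. The inhibitor's effect differed between genotypes in 0 of the 18 genes (0.555% of all genes called in either direction). Against G793A mice on control chow, G793A mice on PLX3397 had a median of −0.13, with 8 of 18 lower at an unadjusted p under 0.05 (5.7% of genes). In G793A mice on PLX5622 the median against WT controls was −0.01. Of 14 myelin genes, 0 were called, 6 were negative, 2 were below all controls (4.11% of all genes) and 1 was above them (3.51%). Intervals inside 1.5-fold were found for 13 of the 14 (76.4% of all genes). Their median of 0.09 was −0.03 without replicate 4 of the treated group and 0.00 without the libraries with high Npas4.

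**Figure D2:**
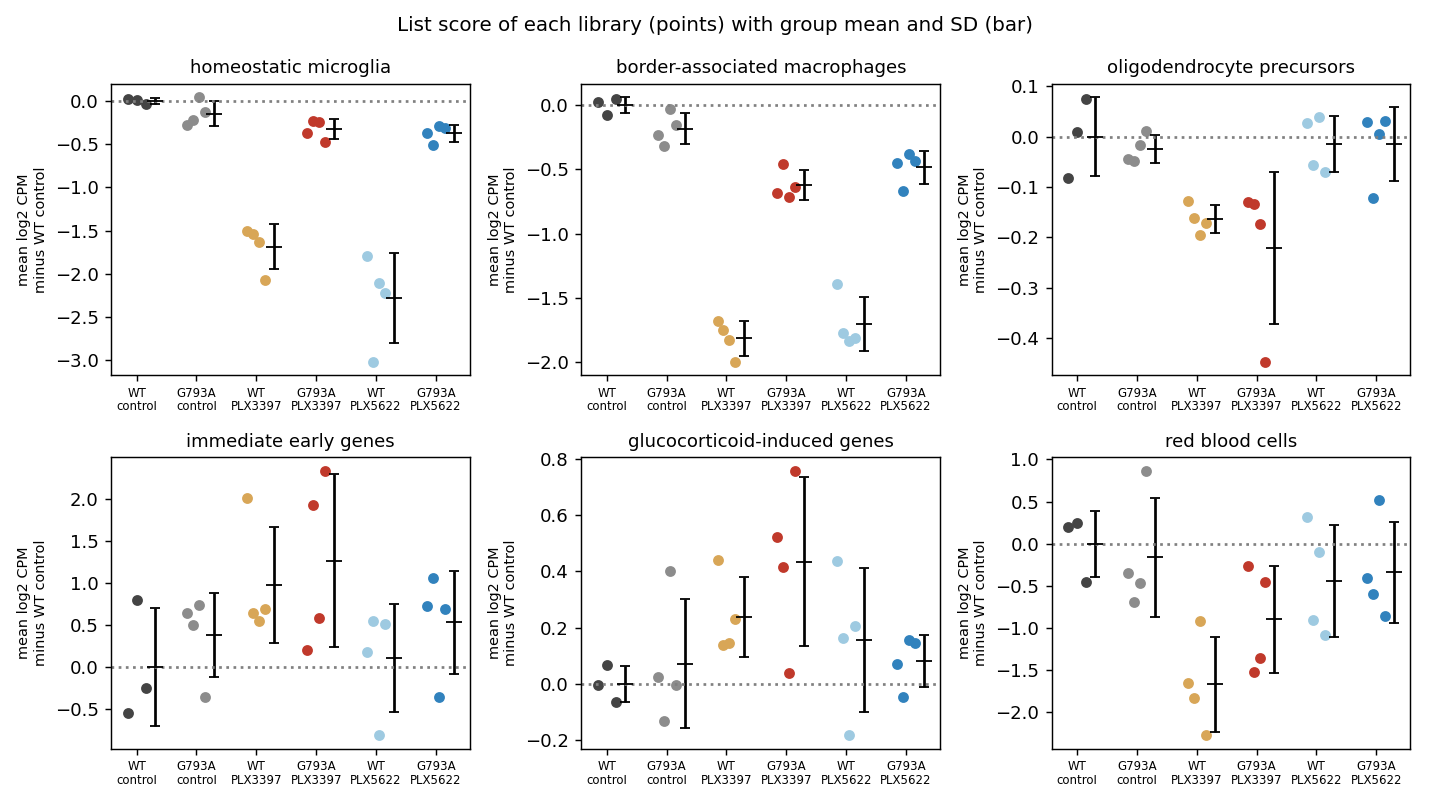
List scores (y axis, mean log2 CPM of the list's genes minus the WT control mean, dotted line at 0) of each library in the 6 groups (x axis), with the group mean and SD beside the points; the y ranges differ between panels. G793A libraries on PLX3397 lie between −0.45 and −0.13 for oligodendrocyte precursors and between −0.72 and −0.46 for border-associated macrophages.

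Microglial genes in G793A mice on PLX3397 stood below the untreated wild-type level, but nearer to it than to the level of WT mice on the same diet. Of 18 genes of resting microglia, 0 were called, 17 had negative values and 13 had all 4 libraries below all 3 controls (4.11% of all genes tested). Their median log2 fold change was −0.35, which put the median gene at 78.3% of the WT control level. The same genes were at 90.3% in G793A mice on control chow and at 25.3% in WT mice on PLX3397, where 14 of 18 fell (1.49% of all genes). The effect of PLX3397 differed between genotypes in 12 of the 18, all higher in G793A mice (0.549% of all genes). On PLX5622, at another dose, the 18 genes had a median of −0.38 in G793A mice against the same WT controls. In bulk tissue, fewer cells of a type and less RNA per cell cannot be told apart.

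Siglech, a microglial lectin gene, stood at 12.6, 12.5 and 11.2 CPM in WT controls and at 7.69, 9.51, 7.80 and 6.82 CPM in G793A mice on PLX3397 (−0.60 ± 0.16, adjusted p = 0.388). P2ry12, a purinergic receptor gene of microglial processes, was at 35.7, 38.4 and 33.8 CPM against 21.6, 28.2, 27.7 and 20.4 CPM (−0.55 ± 0.17, adjusted p = 0.483). Neither gene's groups overlapped. The related receptor gene P2ry13 was at 72.1% of the WT control mean and Olfml3, which encodes a secreted microglial protein, at 77.7%. Without the inhibitor, G793A mice had 87.4% of the control level of Siglech, 85.2% of P2ry12, 92.8% of P2ry13 and 88.9% of Olfml3. In WT mice on PLX3397 these 4 genes were at 17.1%, 16.6%, 15.9% and 33.6%. For none of the 4 did the direct comparison of G793A mice on PLX3397 with G793A mice on control chow pass, with log2 fold changes between −0.40 and −0.19.

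Genes that all myeloid cells share gave a smaller difference. Of 22 tested, 0 were called, 19 were negative and 5 were below all controls (4.11% of all genes), with a median of −0.23 (84.9% of the WT control level, against 36.9% in WT mice on PLX3397). All 22 had a 95% interval that excluded a 2-fold lower level (93.4% of all genes). Itgam, the integrin CD11b, was at 15.3 to 17.9 CPM against 23.7 to 24.4 CPM in WT controls (−0.52 ± 0.19). Aif1, the gene of the marker IBA1, was at 3.43 to 3.66 CPM against 4.31 to 5.36 CPM (−0.42 ± 0.17), and Ly86 was at 5.64 to 7.003 CPM against 8.79 to 9.42 CPM (−0.55 ± 0.20). The groups did not overlap in these 3 genes. The inhibitor's effect differed between genotypes in 16 of the 22 (0.549% of all genes higher). On PLX5622 the 22 genes had a median of −0.24 in G793A mice against WT controls.

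Border-associated macrophages, which line the meninges and vessels, had the lowest median of the macrophage lists. All 13 of their genes were negative and 0 were called. At an unadjusted p under 0.05, 9 were lower (4.17% of all genes), and 6 were below all controls (4.11%). The median of −0.74 put the median gene at 60.0% of the WT control level, with 87.2% in G793A mice on control chow and 24.4% in WT mice on PLX3397. Only 4 of the 13 intervals excluded a 2-fold lower level. On PLX5622 the 13 genes had a median of −0.56 in G793A mice against WT controls. Stab1, a scavenger receptor gene, stood at 13.2, 16.1 and 17.1 CPM in WT controls and at 11.1, 9.90, 9.50 and 10.2 CPM in G793A mice on PLX3397 (−0.60 ± 0.12, adjusted p = 0.117). The groups did not overlap, and Stab1 passed in 3 of 19 alternatives.

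F13a1, the gene of a coagulation factor subunit made by macrophages, was at 2.88, 2.67 and 2.87 CPM in WT controls and at 1.32, 1.32, 1.50 and 1.07 CPM in G793A mice on PLX3397 (−1.10 ± 0.29, adjusted p = 0.388). Mrc1, the mannose receptor gene, was at 4.68, 4.28 and 4.76 CPM against 2.89, 2.67, 2.79 and 2.55 CPM (−0.75 ± 0.23). In both genes each treated library was below each control, near 46.4% and 59.6% of the control mean. WT mice on PLX3397 kept 15.1% of F13a1 and 6.49% of Mrc1. The effect of PLX3397 differed between genotypes in 4 of the 13 genes, including Mrc1, F13a1 and Stab1 (0.549% of all genes higher). Siglec1, a sialic acid receptor gene, was at 60.0% of the WT control level and at 72.4% in G793A mice on control chow.

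**Figure D3:**
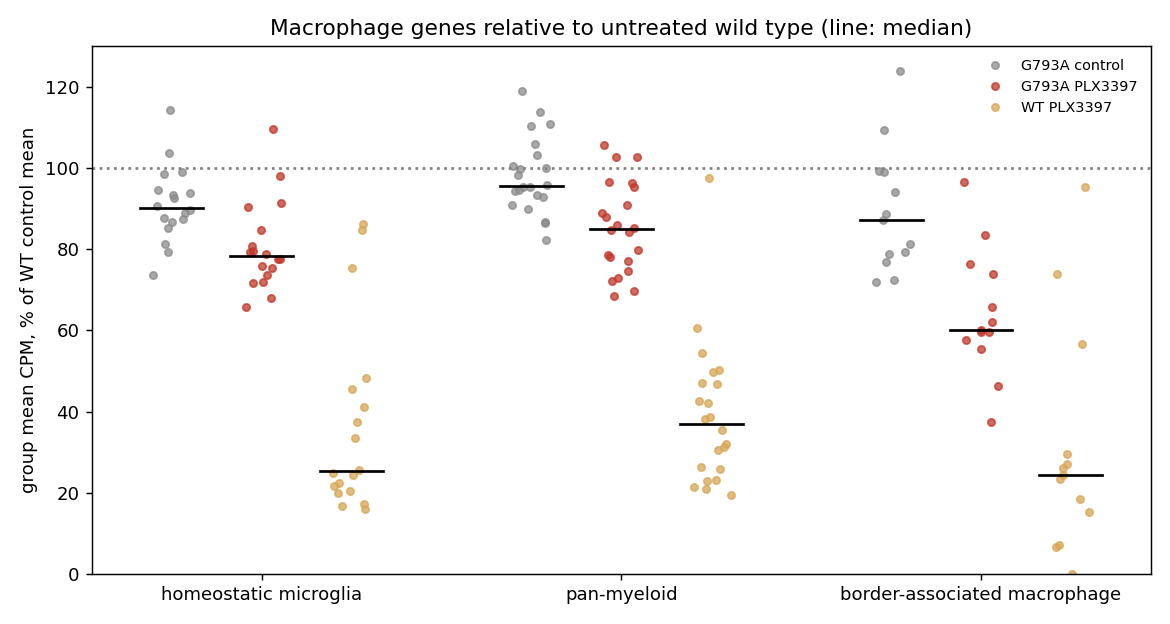
Group mean CPM as a percent of the WT control mean (y axis) for each gene of 3 macrophage lists (x axis), with a line at the list median and a dotted line at 100%; points are genes in G793A controls, G793A mice on PLX3397 and WT mice on PLX3397. The medians for G793A mice on PLX3397 are 78.3%, 84.9% and 60.0%, between those of G793A controls and of WT mice on PLX3397 in each list.

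Without the 4 libraries with high Npas4, all libraries lay below WT controls in 14 of 18 resting microglia genes and in 11 of 13 border-associated macrophage genes. That fit leaves 2 libraries against 3, and 10.3% of all genes are then below. At an unadjusted p under 0.05, 3 of the 18 and 7 of the 13 were lower in that fit (2.98% of all genes). With all libraries these counts were 6 and 9 (4.17%). The medians in the reduced fit were −0.38 and −0.74. Leaving out single libraries moved them between −0.38 and −0.32 and between −0.77 and −0.64.

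Genes of reactive and antigen-presenting myeloid states did not share 1 direction. The 17 genes of activated microglia had a median of 0.00 and 0 called, and the lysosomal protease gene Ctsb was at 0.08 ± 0.04. The chemokine gene Ccl3 was at 4.15 and 3.35 CPM in replicates 2 and 4 of the treated group, the libraries with high Npas4, and at 0.13 and 0.19 CPM in the others, against 0.15 to 0.28 CPM in WT controls. Its log2 fold change of 3.07 became −0.45 without the libraries with high Npas4. Ccl4 had the same pattern, at 2.46 and 2.44 CPM in those libraries and at or under 0.20 CPM in the other treated libraries and WT controls. Whether what raised Npas4 also raised the chemokine genes was not tested.

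Of 10 complement genes 0 were called (median −0.23, and −0.10 without WT control replicate 1). C1qa was at 79.3% of the WT control level. Of 13 antigen presentation genes 12 were negative and 0 were called (median −0.25, and −0.15 without replicate 1 of the treated group). The invariant chain gene Cd74 stood at 6.15, 4.69 and 8.40 CPM in WT controls and at 3.40, 3.99, 3.85 and 4.27 CPM in the treated group, without overlap (−0.73 ± 0.25, adjusted p = 0.496). H2-Aa (−0.93 ± 0.36) and H2-Ab1 (−0.74 ± 0.28), which encode chains of MHC class II, overlapped between the groups. All 17 interferon-stimulated genes were negative, with 0 called and 1 below all controls (4.11% of all genes). At an unadjusted p under 0.05, 6 were lower (4.17%). The median was −0.42. It was −0.11 without WT control replicate 1, whose score was 0.41 against −0.38 and −0.03 in the other controls, and −0.54 without WT control replicate 2. Without the libraries with high Npas4 it was −0.67, with 9 of 17 below all controls (10.3% of all genes) and 8 lower at an unadjusted p under 0.05 (2.98% of all genes). The interferon-induced GTPase gene Irgm2, chosen after its values were seen, was at 5.16, 5.59 and 5.77 CPM in WT controls and 3.10, 4.24, 3.22 and 2.90 CPM in the treated group (−0.70 ± 0.15, adjusted p = 0.152).

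Of the genes outside these lists, the smallest p among the lower ones belonged to Ccnd1, which encodes the cell cycle regulator cyclin D1. It stood at 61.1, 64.4 and 60.6 CPM in WT controls and at 53.0, 44.7, 47.0 and 39.8 CPM in G793A mice on PLX3397. The groups did not overlap. The log2 fold change was −0.43 ± 0.07 (adjusted p = 0.0564), and it passed in 8 of 19 alternatives, with adjusted p between 0.000246 and 0.631. In WT mice on PLX3397 Ccnd1 fell by 0.35 ± 0.07 against the same controls (adjusted p = 0.0082), to 78.3% of the WT control level, against 74.3% in G793A mice on PLX3397 and 94.4% in G793A mice on control chow. The cell cycle list of 12 genes had a median of 0.02 and 0 called.

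Rasgrp3, an activator of Ras proteins, stood at 19.2, 20.8 and 21.5 CPM in WT controls and at 14.8, 16.3, 14.7 and 13.7 CPM in G793A mice on PLX3397, without overlap (−0.46 ± 0.09, adjusted p = 0.124). In WT mice on PLX3397 it fell by 0.52 ± 0.09 (adjusted p = 0.00107), so that its level was 72.5% of WT controls with the substitution and 69.6% without it. G793A mice on control chow were at 84.2%. Ccdc93, a subunit of an endosomal recycling complex, was at −0.28 ± 0.06 (adjusted p = 0.124) and at 86.1% of the WT control level in G793A mice on control chow. Shc4, which encodes an adaptor of receptor tyrosine kinases, was at −0.52 ± 0.12 in G793A mice (adjusted p = 0.272) and −0.47 ± 0.12 in WT mice on PLX3397 (adjusted p = 0.0517).

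Among genes above the control level, edgeR called 0 of 16209 (497 at an unadjusted p under 0.05) and DESeq2 called 10. DESeq2 called Plvap (adjusted p = 0.00712), Eif2a (0.0153), Tagap (0.0145) and Depp1 (0.0239), and edgeR called Plvap and Tagap without replicate 3 of the treated group (adjusted p = 0.0246 and 0.0199). Plvap, which encodes a protein of fenestrated endothelium, stood at 6.23, 6.06 and 5.82 CPM in WT controls and at 8.55, 8.997, 7.34 and 9.15 CPM in G793A mice on PLX3397, without overlap (0.49 ± 0.09, adjusted p = 0.117). G793A mice on control chow had 6.28 to 7.19 CPM, WT mice on PLX3397 6.32 to 7.52 CPM, and G793A mice on PLX5622 7.39 to 8.12 CPM. Eif2a, a translation initiation factor gene, was at 25.7 to 27.9 CPM in WT controls and 33.1 to 35.7 CPM in the treated group (0.37 ± 0.08, adjusted p = 0.186), with 28.5 to 31.9 CPM in G793A mice on control chow. Rpp25, a ribonuclease P subunit gene, was at 11.5 to 14.2 CPM against 15.1 to 15.5 CPM (0.29 ± 0.07, adjusted p = 0.295).

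Tagap, a gene of immune cells, was at 0.99, 1.19 and 0.97 CPM in WT controls and at 2.24, 5.38, 1.28 and 3.66 CPM in the treated group (1.58 ± 0.34, adjusted p = 0.199). Depp1, a gene induced by FOXO transcription factors, was at 0.31, 0.71 and 0.77 CPM against 1.54, 3.29, 0.92 and 3.24 CPM (1.89 ± 0.45, adjusted p = 0.307). In both genes the highest libraries were replicates 2 and 4, and without the libraries with high Npas4 the log2 fold changes were 0.75 and 1.03.

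**Figure D4:**
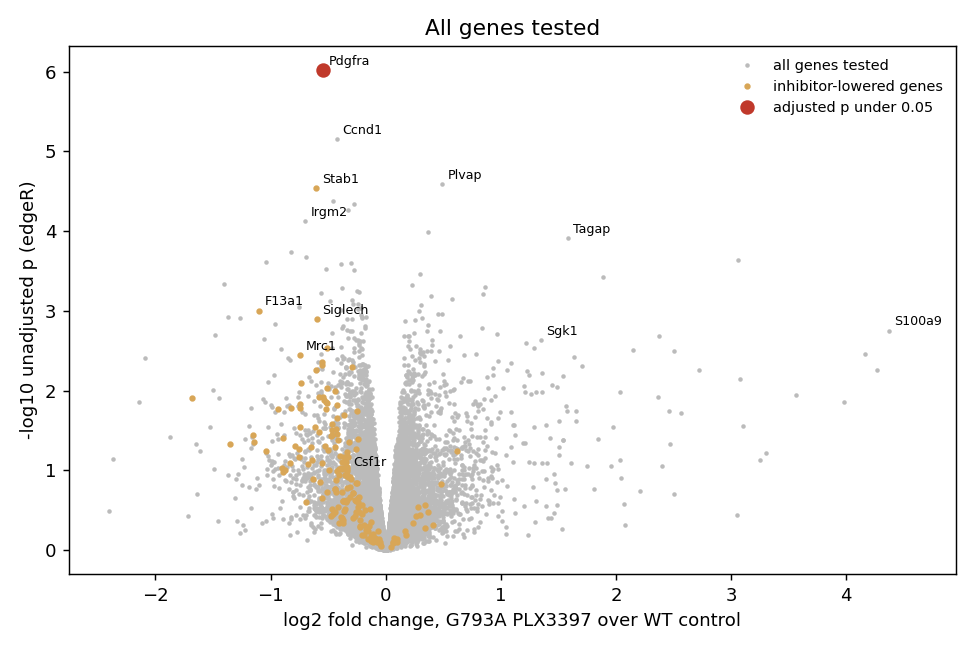
Log2 fold change between G793A mice on PLX3397 and WT controls (x axis) against −log10 of the unadjusted edgeR p (y axis) for 16209 genes; orange points are the 172 genes called lower in WT mice on PLX3397 than in G793A controls, and the red point is Pdgfra, the only gene called. Most orange points lie left of 0.

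A list of inhibitor-lowered genes was drawn from libraries outside the main pair: 172 genes were at least 2-fold lower and called between WT mice on PLX3397 and G793A mice on control chow (1.06% of genes tested). Those 2 groups differ in genotype as well as diet. Between WT mice on PLX3397 and WT controls all 172 were negative, and 142 were called lower (1.49% of all genes). In G793A mice on PLX3397 against WT controls 0 of the 172 were called, 154 were negative and 57 were below all controls (4.11% of all genes). Their median was −0.36, against 0.00 over all genes, and the median gene stood at 77.9% of the WT control level. The same genes were at 94.3% in G793A mice on control chow and at 30.1% in WT mice on PLX3397, groups that chose the list. On PLX5622 the 172 genes had a median of −0.34 in G793A mice against WT controls. The intervals that follow are for G793A mice on PLX3397. The 95% interval excluded a 2-fold lower level for 117 of the 172 (93.4% of all genes) and lay inside 1.5-fold either way for 19 (76.4%).

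The scores of the 172 genes were −0.42, −0.21, −0.43 and −0.37 in the 4 treated libraries and −0.04 to 0.06 in WT controls, so the groups did not overlap. Leaving out any 1 library moved the median between −0.42 and −0.33, and without the libraries with high Npas4 it was −0.44, with 108 genes below all controls (10.3% of all genes). At the lower end of the list were Cd300ld3, an immune receptor gene at 0.36 to 0.59 CPM in WT controls and 0.09 to 0.17 CPM in the treated group, and Clec4n, a lectin receptor gene at 0.12 to 0.34 CPM and 0.05 to 0.16 CPM. F13a1 and the haemoglobin genes Hbb-bs and Hba-a1 completed the 5 lowest. At the upper end was Rasal3, a Ras GTPase-activating protein gene of blood cells, at 0.64 to 1.40 CPM in WT controls, 1.47 to 1.94 CPM in G793A mice on control chow and 1.13 to 2.02 CPM in G793A mice on PLX3397. In WT mice on PLX3397 it was at 0.25 to 0.59 CPM. Only 5 genes met the same rule in the higher direction (0.0308% of genes tested), and together they summed to 0.47 to 1.01 CPM in WT controls.

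**Figure D5:**
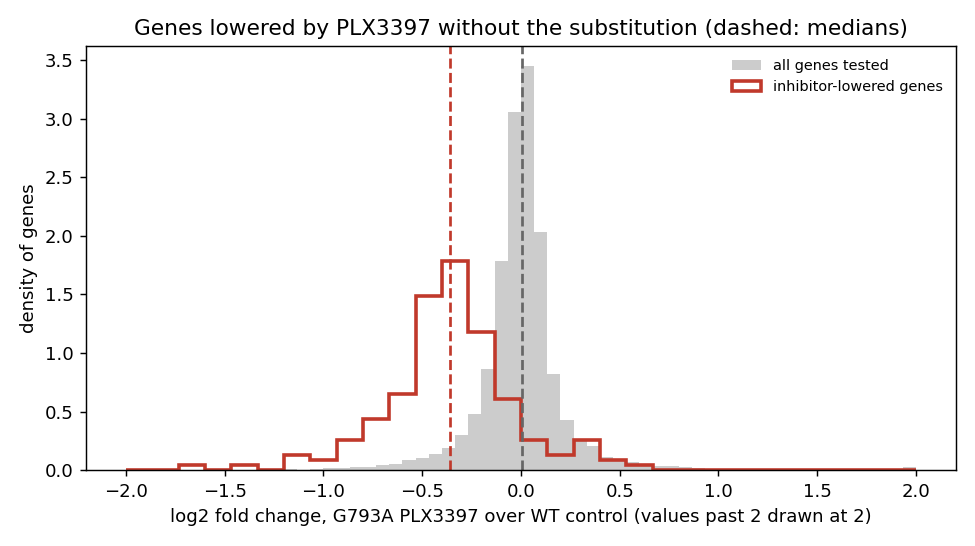
Distribution (y axis, density of genes) of log2 fold changes between G793A mice on PLX3397 and WT controls (x axis) for the 172 genes called lower in WT mice on PLX3397 than in G793A controls (red outline) and for all 16209 genes (grey), with dashed lines at the medians. The medians are −0.36 and 0.00.

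Blood-borne cells did not follow 1 direction. Of 11 markers of infiltrating leukocytes, 0 were called and 3 were above all controls (3.51% of all genes), with a median of 0.58. This median was 0.97 without WT control replicate 3 and 0.35 without the libraries with high Npas4. Against the same WT controls, the median was 0.54 in G793A mice on control chow and 0.66 in WT mice on PLX3397. On PLX5622, at another dose, it was 1.14 in G793A mice. Summed, the list was at 2.33 to 2.59 CPM in WT controls and 3.10 to 11.7 CPM in G793A mice on PLX3397. The neutrophil gene S100a8 stood at 0.11, 0.09 and 0.15 CPM in WT controls and at 3.53, 1.72, 0.39 and 3.24 CPM in the treated group, and S100a9 at 0.31, 0.09 and 0.02 CPM against 4.61, 3.22, 0.34 and 3.62 CPM. Neither passed in edgeR (adjusted p = 0.472 and 0.424), and both passed in DESeq2 (adjusted p = 0.0146 and 0.00853). G793A mice on control chow had 0.15 to 1.05 CPM of S100a8 and WT mice on PLX3397 0.79 to 3.67 CPM. The 6 red blood cell genes had a median of −0.96, with scores of −0.26, −1.53, −1.36 and −0.45 in the treated group and −0.45 to 0.25 in WT controls. Hbb-bs was at 72.0 to 134.1 CPM in WT controls and 28.6 to 91.7 CPM in the treated group, with overlap. Hba-a1 and Hba-a2 are near-identical copies whose counts are uncertain.

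Stress and activity genes leaned high. Of 12 immediate early genes, which neurons switch on within minutes of firing, all were positive, 8 were higher at an unadjusted p under 0.05 (3.07% of all genes), 0 were called and 0 were separated from WT controls. Without the libraries with high Npas4, 0 of the 12 were higher at that threshold, and the median of 1.33 was 0.33. Of 12 glucocorticoid-induced genes 11 were positive, 3 were above all controls (3.51% of all genes) and 0 were called, with a median of 0.43. At an unadjusted p under 0.05, 5 were higher (3.07% of all genes). Without the libraries with high Npas4 the median was 0.30, and 1 gene was higher at that threshold (1.83% of all genes). Sgk1, a kinase gene induced by corticosteroids, stood at 45.9, 55.7 and 46.1 CPM in WT controls and at 165.8, 98.6, 73.4 and 165.1 CPM in G793A mice on PLX3397 (1.35 ± 0.38, adjusted p = 0.438). The groups did not overlap, and replicates 1, with low Npas4, and 4, with high Npas4, were the highest. WT mice on PLX3397 were at 58.1 to 133.3 CPM and G793A mice on PLX5622 at 52.8 to 90.7 CPM. Tsc22d3, another target of the glucocorticoid receptor, was at 62.0 to 67.9 CPM in WT controls and 69.3 to 106.7 CPM in the treated group (0.46 ± 0.14).

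With all libraries, other brain cell types lay near the untreated wild-type level. All 14 neuronal genes had a 95% interval inside 1.5-fold (76.4% of all genes), with a median of 0.08. The median was 0.02 for 13 astrocyte genes (−0.05 without the libraries with high Npas4), of which 12 had such an interval. Aqp4, the water channel gene of astrocyte endfeet, was below all controls at 133.9 to 193.2 CPM against 194.7 to 237.2 CPM (−0.38 ± 0.13, adjusted p = 0.496). The median was −0.08 for 14 endothelial genes, where 2 were below all controls (4.11% of all genes), among them the VEGF receptor gene Kdr (−0.35 ± 0.13). Without the libraries with high Npas4 the endothelial median was −0.22, with 7 of 14 below all controls (10.3% of all genes). At an unadjusted p under 0.05, 6 of the 14 were then lower (2.98% of all genes), against 1 with all libraries (4.17%). The median was −0.06 for 14 fibroblast and mural genes, and −0.15 without the libraries with high Npas4. No gene of these 4 lists was called. Over all genes, 12381 (76.4%) had a 95% interval inside 1.5-fold and 18 (0.111%) had one wholly beyond it.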

How the data were processed

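The authors deposited estimated counts per gene symbol (expected counts, not scaled to library size) and log2 variance-stabilised values, the latter used only as an alternative. The submitters' processing notes list the build GRCm39 and the tools kallisto 0.46.1, FastQC 0.11.9 and DESeq2 1.26.0, while for the summing of transcripts to genes the method was not given in the sources used here. Libraries were poly(A)-selected and stranded, per the labels' protocols. The members and gene lists were chosen with earlier results of these data known. One blank entry (at most 0.0151% of counts) was left out. Rounded counts were tested with edgeR 4.0.16 under R 4.3.3 (TMM, filterByExpr with minimum count 10 and total 15, robust quasi-likelihood fit, 1 term per group, two-sided). The SE is the log2 fold change divided by the root of F. Scores use log2 CPM with a prior count of 2. Replicates differed beyond counting noise (chi-square per degree of freedom 8.7 to 23.3), so none was a duplicate. The test was checked on simulated counts. Named genes are Csf1r, its ligands, the class III kinases and ligands, genes called, the 5 smallest p in each direction among non-overlapping genes at 1 CPM or more, up to 4 per list described and the 5 extremes of the inhibitor-lowered and -raised genes. Positions are not given: the annotation used (GENCODE vM21) is on another build and was used for GC content and transcript length alone, matched by symbol for 98.0% of genes tested. Alternatives were RLE scaling, other filters, DESeq2 1.42.0, limma 3.58.1, a replicate block, fewer groups and leaving out libraries.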

Additional observations from a re-analysis of the deposited data

Results flagged for a closer look

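Among the 4 libraries, single values far from the other 3 were found for 9 of 126 gene levels and list scores examined, where chance gives about 1 in 20, or 6.3. Only the libraries of G793A mice on PLX3397 were examined in this way. High single values were C3 in replicate 3 (1.43 CPM, others 0.89 to 0.93), Gad1 in replicate 3 (620.8 CPM, others 507.3 to 523.4) and Mmp13 in replicate 2 (0.1855 CPM, others 0.00 to 0.03). Low single values were Rgs5 in replicate 3 (64.86 CPM, others 78.2 to 79.8), Siglec1 in replicate 3 (0.315 CPM, others 0.42 to 0.43) and Ugt8a in replicate 2 (78.84 CPM, others 89.0 to 90.3). Among list scores, oligodendrocyte precursor genes were low in replicate 4 (−0.4463, others −0.17 to −0.13), choroid plexus genes were low in replicate 2 (−0.6478, others 0.22 to 0.31) and committed precursor genes were highest in replicate 3 (−0.1601, others −0.18 to −0.17).

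For 12 of 97 named genes the effect of PLX3397 (log2 fold change) differed between the genotypes by the interaction test in edgeR. Taken as G793A minus WT, the difference was positive in all 12. Over all genes 90 of 16209 passed (0.555%), 89 of them positive. The named genes include members chosen from the inhibitor-lowered genes. The differences were 1.79 for Aif1, 1.93 for C1qa, 1.88 for Csf1r, 1.95 for F13a1, 2.05 for Itgam, 1.79 for Ly86, 3.39 for Mrc1, 1.39 for Olfml3, 2.26 for P2ry12, 2.30 for P2ry13, 2.14 for Siglech and 1.80 for Stab1. Adjusted p-values ran from 2.03e-06 (Stab1) to 0.0302 (F13a1).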

How the results depend on the processing

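The count of genes called between G793A mice on PLX3397 and WT controls (1) was 2 with RLE scaling, with no filter, with a filter at a mean of 1 CPM and with limma on the deposited variance-stabilised values, 3 with limma-voom, 4 with length and GC trends removed, and 26 with DESeq2 (10 higher, 16 lower). It was 0 in the 2 compared groups alone, 0 in WT controls with the G793A groups and 0 with the replicate block, where Pdgfra was at −0.53 (adjusted p = 0.0664). Same-numbered libraries of the 2 groups had residual correlations of 0.0244, 0.0284 and 0.1, and not every library correlated best with its own number. These few values cannot show whether the numbers mark paired libraries. Leaving out 1 library gave 0 to 4 calls. Against G793A controls the count (1) was 18 with DESeq2 and 0 to 23 without 1 library. G793A controls against WT controls gave 0 calls with 1803 genes at an unadjusted p under 0.05 in edgeR, and 0 to 375 without 1 library, the most without G793A control replicate 2. Without the libraries with high Npas4, chosen after seeing the data, 1725 genes lay above and 1654 below all controls (569 and 667 with all libraries). Groups with fewer libraries separate completely by chance more often, so these counts are not comparable. The other main counts and the median of the inhibitor-lowered genes stayed within 1.5 times. Signs reversed without those libraries for Aldh1l1 (−0.0509), Ccl3 (−0.45) and Mmp13 (−0.75), and for Il34 on the variance-stabilised values (−0.0246) and with trends removed (−0.0083). Leaving out 1 library also reversed signs, with ranges of −1.12 to 1.107 for Mmp13 (negative without replicate 2 of the treated group) and −0.0676 to 0.3115 for Pdgfc (negative without that library or WT control replicate 2). The ranges were −0.0711 to 0.0014 for Csf1, −0.0681 to 0.1017 for Il34 and −0.2201 to 0.1003 for Pdgfd, each reversed without WT control replicate 3. The causes were not tested. With 3 and 4 libraries, the median SE was 0.0971, which limits calls on small differences.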

Other observations

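Lists of other processes are given with values only, for G793A mice on PLX3397 against WT controls. The 12 transcription factor genes of myeloid identity had a median log2 fold change of −0.17. The medians were 0.02 for 15 clock genes and 0.08 for 18 cholesterol synthesis genes (3 above all controls, 3.51% of all genes). The clock genes moved in both directions. At an unadjusted p under 0.05, 4 of the 15 were higher (3.07% of all genes) and 4 were lower (4.17%). All treated libraries lay above WT controls in 1 clock gene (3.51%) and below them in 3 (4.11%). The medians were −0.02 for 12 reactive astrocyte genes, 0.04 for 8 choroid plexus genes (0.31 without the libraries with high Npas4) and −0.03 for 7 cerebellar genes. The 5 pituitary genes tested had a median of 2.08, which was −0.22 without replicate 1 of the treated group, and their summed level was 2.44 to 5.18 CPM in WT controls and 2.86 to 10.2 CPM in the treated group. None of these genes was called.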
